A study of Homo sapiens with 12 samples.

Results

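Human chromosomes 17, 19 and 22 form a group because they carry many genes for their length, and every peak listed on them was used. They held 52823 peaks over 9 lists, out of 764268 in all and 6.93% of those on chromosomes 1 to 22 and X. Chromosome 17 held 24204 of these peaks, chromosome 19 held 17346 and chromosome 22 held 11273. The name of the group was checked against the protein-coding genes that RefSeq lists for GRCh38.p14, counted per 1 Mb window with a peak in any list. Chromosome 19 had 25.0 such genes per Mb, chromosome 17 had 14.6 and chromosome 22 had 12.5, the first 3 places among 23 chromosomes.

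The peaks came from ChIRP-seq of Jurkat, a cell line established from human T-cell leukaemia, and in every group the cells stably expressed SLEAR, a long non-coding RNA. The groups were chromatin captured with odd probes, with even probes and with lacZ probes, with 3 libraries each. The cells of the lacZ group thus carry the added RNA too. The 3 input libraries were not analysed here. Nothing in the labels says that the libraries of a group came from separate cultures, so a p-value here reflects the spread between libraries only, which may be technical.

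In ChIRP, biotinylated DNA oligonucleotides that pair with an RNA pull it out of crosslinked cells together with DNA, which is then sequenced. The odd and even probes tile the same RNA and have no oligonucleotide in common, so stretches recovered by both are less prone to capture of DNA by a single oligonucleotide, and lacZ probes have no human target RNA. Gene-dense chromosomes lie towards the centre of the nucleus, are rich in GC and in Alu repeats, and hold much of the open and transcribed chromatin of a cell, which is why they are a useful place to compare such probe sets.

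The odd lists held 4889, 7954 and 7932 peaks on the 3 chromosomes, the even lists 6890, 6275 and 8252, and the lacZ lists 3047, 5981 and 1603. In lacZ replicate 2 there were more peaks than in odd replicate 1, so the numbers overlapped between the sets. The total lists on chromosomes 1 to 22 and X also differed in length, from 66336 to 117145 peaks with odd probes, 90179 to 124191 with even probes and 26460 to 90804 with lacZ probes. A share within each list was therefore used to compare the probe sets.

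The 3 chromosomes took a larger share of the peaks with odd and even probes than with lacZ probes. The share was 7.37%, 7.51% and 6.77% in the odd lists, 7.32%, 6.96% and 6.64% in the even lists and 6.54%, 6.59% and 6.06% in the lacZ lists. No lacZ list reached the lowest odd or even list, and replicate 3 was lowest in each set. On average the share was 7.22% ± 0.391 with odd probes, 6.97% ± 0.338 with even probes and 6.40% ± 0.294 with lacZ probes (SD, n = 3 each). The difference of odd and even from lacZ lists was 0.15 on the log2 scale, a 1.11-fold higher share (exact permutation test over 84 choices of 3 lists, two-sided, p = 0.0238, adjusted p = 0.0437 over 11 tests by Benjamini-Hochberg). Without lacZ replicate 3, the shortest list, the difference was 0.11 and did not pass the test (exact permutation p = 0.107). With all lists cut to the same number of peaks, those of highest significance, it was 0.21 (exact permutation p = 0.0119, the smallest possible). Odd lists differed from even lists by 0.05 (exact permutation p = 0.5, where 3 against 3 cannot go below 0.1). These tests treat lists as exchangeable although lists of a probe set share sites, so they do not measure how the share varies between probe sets.

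**Figure D1:**
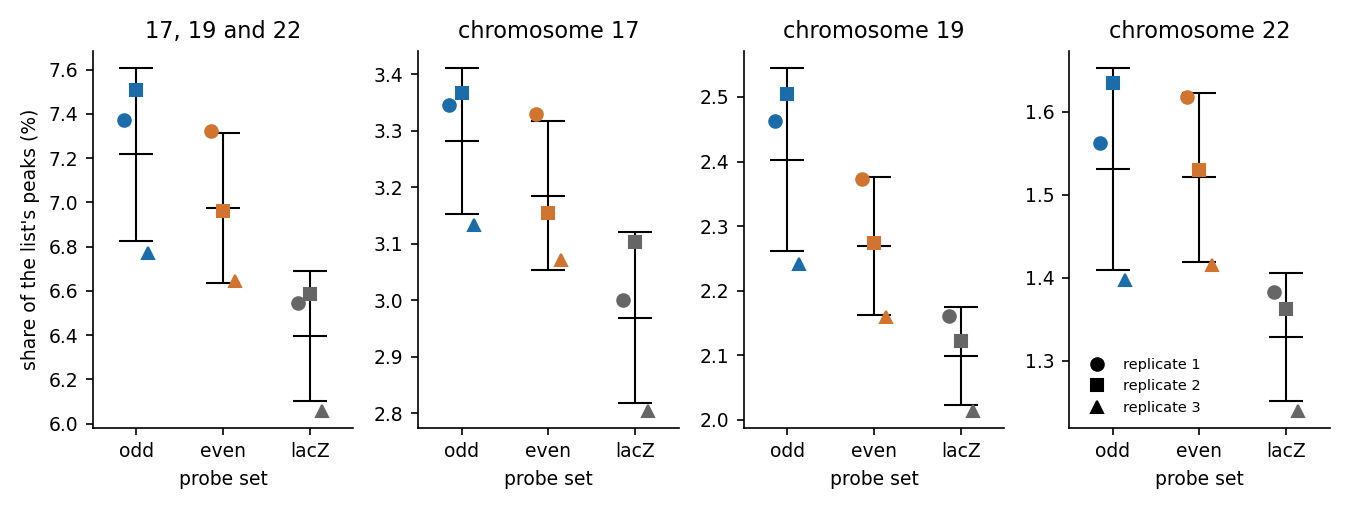
Percent of each list's peaks that lie on chromosomes 17, 19 and 22, all 3 together and each alone, with 1 point per list and lines at the mean and SD of each probe set (the axes do not start at 0). All 6 odd and even lists lie above the 3 lacZ lists for the 3 chromosomes together and for chromosome 22, and the sets touch or overlap for chromosomes 17 and 19.

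Each of the 3 chromosomes had a higher share with odd and even probes than with lacZ probes. Chromosome 22 took 1.56%, 1.63% and 1.40% of the odd peaks, 1.62%, 1.53% and 1.41% of the even peaks and 1.38%, 1.36% and 1.24% of the lacZ peaks. The lacZ lists lay below all others there, at a log2 difference of 0.20 (exact permutation p = 0.0238, adjusted p = 0.0437). Chromosome 19 took 2.46%, 2.505% and 2.24% of the odd peaks, 2.37%, 2.27% and 2.16% of the even peaks and 2.16%, 2.12% and 2.01% of the lacZ peaks. Even replicate 3 lay just below lacZ replicate 1, so the groups overlapped by a single pair of lists, and the log2 difference was 0.15 (exact permutation p = 0.0357, adjusted p = 0.0491). Chromosome 17 took 3.35%, 3.37% and 3.13% of the odd peaks, 3.33%, 3.15% and 3.07% of the even peaks and 3.0%, 3.10% and 2.80% of the lacZ peaks. Here lacZ replicate 2 lay above even replicate 3, and the log2 difference was 0.12 (exact permutation p = 0.0357, adjusted p = 0.0491).

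Peaks per Mb were higher on the 3 chromosomes than on the other main chromosomes in all 9 lists. The odd lists had 28.1, 45.7 and 45.6 peaks per Mb on the 3 chromosomes, against 22.6, 36.1 and 40.2 elsewhere. The even lists had 39.6, 36.1 and 47.4 peaks per Mb on them, against 32.1, 30.9 and 42.7 elsewhere. The lacZ lists had 17.5, 34.4 and 9.21 peaks per Mb on them, against 16, 31.3 and 9.16 elsewhere, so in lacZ replicate 3 the densities were nearly alike. The ratio of the densities was 1.21 ± 0.0708 with odd probes, 1.17 ± 0.0610 with even probes and 1.07 ± 0.0522 with lacZ probes (SD, n = 3 each). Over all 9 lists the density was 1.15-fold higher on the 3 chromosomes, a log2 difference of 0.20 (exact sign-flip permutation test within lists, two-sided, p = 0.00391, the smallest of 512 arrangements, adjusted p = 0.0143). Lists of a probe set share sites, so they are not independent samples of the genome.

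The 3 chromosomes did not have the highest density of all. Chromosome 20 ranked first of 23 in each probe set, and chromosome 22 came second with odd and with even probes. With odd probes chromosome 19 ranked 4 and chromosome 17 ranked 5, and with even probes chromosome 17 ranked 3 and chromosome 19 ranked 5. With lacZ probes their ranks were 7 for chromosome 17, 9 for chromosome 22 and 12 for chromosome 19, the most gene-dense chromosome. Relative to the mean of the list, chromosome 22 had a density of 1.23 ± 0.0975 with odd probes, 1.22 ± 0.0818 with even probes and 1.07 ± 0.0622 with lacZ probes (SD, n = 3 each). Chromosome 20 had 1.34 ± 0.0668, 1.301 ± 0.0591 and 1.247 ± 0.0262 on the same scale with odd, even and lacZ probes. Across the 23 chromosomes, density and coding genes per Mb had a Pearson r of 0.56 and a Spearman rho of 0.77 with odd probes, an r of 0.49 and a rho of 0.77 with even probes, and an r of 0.24 and a rho of 0.33 with lacZ probes. These correlations describe chromosomes that share their libraries and also differ in base composition, which was not measured here.

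**Figure D2:**
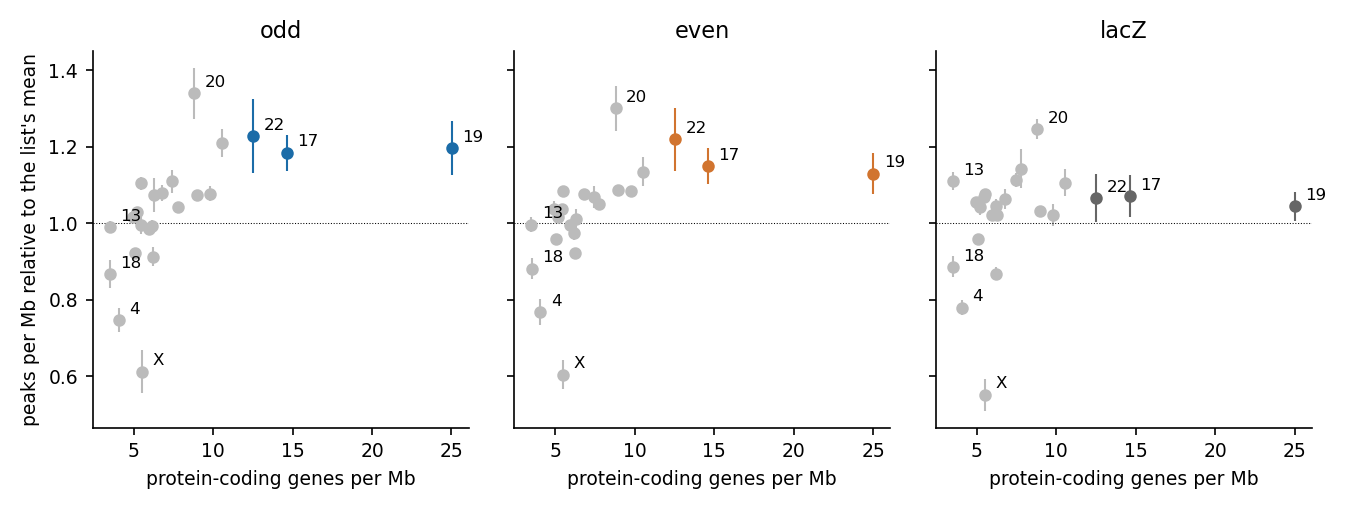
Peak density of each of 23 chromosomes relative to the whole list (mean of 3 lists per probe set, bars show the SD) against protein-coding genes per Mb. Chromosomes 17, 19 and 22 lie at the right of each panel, at 1.18 to 1.23 with odd probes, 1.13 to 1.22 with even probes and 1.05 to 1.07 with lacZ probes, below chromosome 20 in each.

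Pileup, the number of fragments over a peak's summit, was higher on the 3 chromosomes than elsewhere in every list. The median pileup was 28, 36 and 23 on them in the odd lists, against 26, 32 and 19 elsewhere. It was 34, 37 and 23 on them in the even lists, against 29, 31 and 20 elsewhere, and 25, 28 and 24 in the lacZ lists, against 24, 25 and 22 elsewhere. The ratio averaged 1.14 ± 0.0677 with odd, 1.17 ± 0.0218 with even and 1.08 ± 0.0396 with lacZ probes (SD, n = 3 each). The log2 difference of odd and even from lacZ lists was 0.09 and did not pass the test (exact permutation p = 0.0714, adjusted p = 0.0873). It was 0.11 without odd replicate 1 (exact permutation p = 0.0179, the smallest possible for those lists), 0.05 with peaks at or above the list's median fold (exact permutation p = 0.226) and 0.02 with lists of equal length (exact permutation p = 0.476). Leaving out any other single list gave 0.062 to 0.114 and did not pass (exact permutation p = 0.0893 to 0.286).

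Peak length hardly differed. The median length was 393, 359 and 348 bases on the 3 chromosomes in the odd lists, against 394, 362 and 348 elsewhere. It was 409, 403 and 378 bases in the even lists, against 409, 400 and 365 elsewhere, and 416, 368 and 445 bases in the lacZ lists, against 420, 369 and 450 elsewhere. The log2 difference between odd and even lists and lacZ lists in this ratio was 0.02 (exact permutation p = 0.179, adjusted p = 0.196).

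Fold enrichment, the authors' ratio of a summit's pileup to a background, did not follow the pileup. Its median on the 3 chromosomes was 0.905 to 1.0 times that elsewhere in the odd lists, 0.946 to 1.0 times in the even lists and 0.905 to 0.981 times in the lacZ lists. The background that pileup and fold imply was higher on the 3 chromosomes than elsewhere in all 9 lists, at 1.27 ± 0.0366 times with odd, 1.28 ± 0.0523 times with even and 1.21 ± 0.0605 times with lacZ probes (SD, n = 3 each). Its part in the higher pileup and the higher peak number was not tested.

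In the upper 10% of peaks by fold, the share of the 3 chromosomes was lower than in the list as a whole. They held 5.91%, 6.51% and 6.33% of the odd peaks, 7.0%, 6.87% and 6.53% of the even peaks and 5.82%, 6.24% and 5.57% of the lacZ peaks. In each of the 9 lists this was below their share of the whole list. With odd probes the share averaged 8.70% ± 1.80 in the lowest decile of fold and 6.25% ± 0.310 in the highest, with even probes 7.0% ± 1.43 and 6.81% ± 0.248, and with lacZ probes 7.59% ± 0.861 and 5.88% ± 0.333 (SD, n = 3 each). In that upper 10%, all 3 even lists lay above all 3 lacZ lists, and odd replicate 1 lay among the lacZ lists. The upper 1% had another order, with 6.17%, 6.23% and 6.74% in the odd lists, 6.16%, 4.55% and 5.05% in the even lists and 7.28%, 6.15% and 5.66% in the lacZ lists. There lacZ replicate 1 had more than its share of the whole list, the other 8 lists had less, and the sets overlapped, with only 15 to 79 peaks of the 3 chromosomes behind each value.

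**Figure D3:**
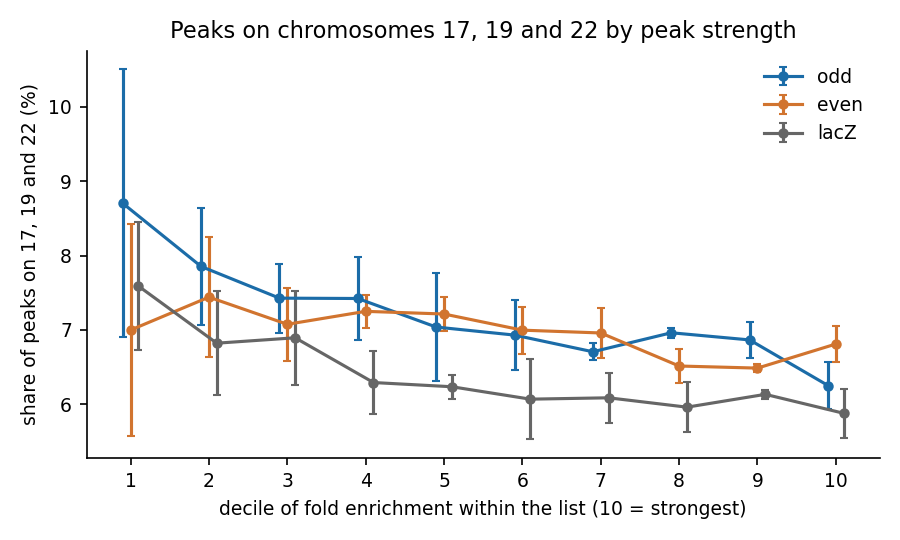
Percent of peaks on chromosomes 17, 19 and 22 in each decile of a list's peaks by fold enrichment, from weakest to strongest, as the mean of 3 lists per probe set with the SD as bars. The odd and lacZ lines fall towards the strongest peaks, to 6.25% and 5.88%, while the even line ends at 6.81%.

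The 3 chromosomes held 174 windows of 1 Mb with a peak in any list, 80 on chromosome 17, 58 on chromosome 19 and 36 on chromosome 22. A hot window was one with at least 2 times the median window of the list in all 3 lists of a probe set. No window on the 3 chromosomes met this with odd, even or lacZ probes, and none of all 2888 windows did (0%). At 1.5 times the median, 9 windows qualified with odd probes, where 2.46% of all windows did. With even probes 6 windows qualified, where 1.52% did, and with lacZ probes 1 window, where 1.73% did. That is 5.17% of the 174 windows with odd, 3.45% with even and 0.575% with lacZ probes. No window qualified in more than 1 probe set at this level. With so few windows called, little overlap could arise, so this does not show that the sets differ in their dense windows. Over all 174 windows, densities relative to the list median had a Pearson r of 0.58 between odd and even probes. The r was 0.31 between odd and lacZ probes and 0.38 between even and lacZ probes. By rank the relation was weaker, with a Spearman rho of 0.45, 0.064 and 0.18 in the same order. On the other main chromosomes r was 0.73, 0.56 and 0.57, and rho was 0.72, 0.55 and 0.55. The typical window of the 3 chromosomes was also above the median of its list. Its density was 1.23 times that median for odd, 1.18 times for even and 1.09 times for lacZ probes. Of the 174 windows, 138, 133 and 108 lay above it.

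On chromosome 19 the window of highest odd density ran from 49000001 to 50000000 (hg19, as are all positions here). It had 49, 68 and 73 odd peaks, 41, 35 and 41 even peaks and 14, 31 and 4 lacZ peaks. In units of each list's median window that is 1.93 ± 0.179 with odd, 1.11 ± 0.15 with even and 0.763 ± 0.28 with lacZ probes (SD, n = 3 each). The window was chosen for its odd density, and the even and lacZ lists were on average close to or below their own median there.

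The window of highest even density on chromosome 19 ran from 28000001 to 29000000, with 27, 45 and 52 odd peaks, 60, 59 and 78 even peaks and 10, 28 and 5 lacZ peaks. Its relative density was 1.23 ± 0.0501 with odd, 1.85 ± 0.05 with even and 0.685 ± 0.17 with lacZ probes (SD, n = 3 each). The next window, from 29000001 to 30000000, was the highest of the 3 chromosomes with lacZ probes, at 1.91 ± 0.16, against 1.52 ± 0.0747 with odd and 1.38 ± 0.043 with even probes. Neighbouring windows thus led in different probe sets.

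On chromosome 17 the highest odd window ran from 72000001 to 73000000, with 41, 69 and 69 odd peaks, 49, 50 and 56 even peaks and 16, 32 and 10 lacZ peaks. The highest even window there ran from 55000001 to 56000000, with 32, 50 and 49 odd peaks, 62, 57 and 77 even peaks and 12, 45 and 9 lacZ peaks. Relative densities were 1.79 ± 0.117 with odd probes in the first and 1.84 ± 0.044 with even probes in the second, against 1.04 ± 0.064 and 1.05 ± 0.33 with lacZ probes in the same windows. On chromosome 22 the window from 20000001 to 21000000 led with odd probes, with 44, 68 and 65 odd peaks, 35, 31 and 40 even peaks and 12, 27 and 5 lacZ peaks. On the same chromosome the window from 26000001 to 27000000 led with both even and lacZ probes, at 1.77 ± 0.17 and 1.59 ± 0.31, and stood at 1.31 ± 0.215 with odd probes.

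Overlapping peaks of the 9 lists, by 1 base or more, were joined, which gave 24382 regions on the 3 chromosomes. Candidate regions were those found in 5 or 6 of the 6 odd and even lists but in no lacZ list. There were 314 on the 3 chromosomes, 1.29% of their regions (Wilson 95% interval 1.15 to 1.44, counting error only), where 1.13% of all regions on chromosomes 1 to 22 and X met the same rule. Chromosome 17 had 144 (1.28%), chromosome 19 had 112 (1.40%) and chromosome 22 had 58 (1.12%). Elsewhere the share was 1.12%, and on the gene-poor chromosomes 4, 13 and 18 it was 0.927%. Per Mb there were 1.80 candidates on the 3 chromosomes, 1.37 on the other main chromosomes and 1.0 on chromosomes 4, 13 and 18.

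The candidates had a median length of 842.5 bases and ranged from 355 to 2204. All 6 odd and even lists had a peak in 171 of them, which is 54.5%, against 58.0% elsewhere. Of those with 5 lists, 79 lacked a peak in odd replicate 1, the shortest odd list. Peaks of odd probes ranked higher by fold in 146 of the 314 and peaks of even probes in 168. A list without a peak lowered the rank of its set here, and 93 candidates lacked an odd list, against 50 that lacked an even list. The candidates were spread over 144 of the 174 windows, and the window with the most, 7, ran from 55000001 to 56000000 on chromosome 19. The median distance to the next candidate was 332 kb.

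To see how many such regions arise where the odd and even peaks do not face each other, all even lists were moved as a block, up or down the chromosome, by distances of 50 to 500 kb that grew by 50 kb. At the real position there were 314 candidates, against 247 ± 15.5 over the 20 shifts (SD, range 221 to 278), a ratio of 1.27. No shift reached the real count. With all lists cut to the same number of peaks, those of highest significance, the direction turned. There were 22 candidates against 30.3 ± 6.56 after shifts, a ratio of 0.727, while the other main chromosomes kept 1.35. This setting changes list length and peak significance together. In those lists the candidate share was 0.660 times that elsewhere, against 1.15 times in the full lists. Chromosome 17 had 144, against 112 ± 10.8 (range 92 to 126), and chromosome 19 had 112, against 79.4 ± 8.62 (range 65 to 101). Both lay above all their shifts, at ratios of 1.29 and 1.41. Chromosome 22 had 58, against 55.8 ± 8.05 (range 42 to 69), and 9 of the 20 shifts gave as many or more. The count on chromosome 22 thus lay within the range of its shifts. On the other main chromosomes the ratio was 1.35, and on chromosomes 4, 13 and 18 it was 1.36, both above that of the gene-dense chromosomes.

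The ratio to shifts was highest for regions whose odd and even summits coincided. Summits within 50 bases of each other were found in 66 candidates, against 20.9 ± 4.65 after shifts, a ratio of 3.17. For summits 51 to 100 bases apart there were 36, against 24.1 ± 4.84. For those over 100 and up to 200 bases apart there were 43, against 47.0 ± 9.32, and for those over 200 and up to 500 bases apart 138, against 115 ± 9.35. Beyond 500 bases there were 31, against 40.1 ± 5.92. Candidates with summits within 100 bases numbered 102 in all, against 44.9 ± 6.48 after shifts. Chromosome 17 had 52 of these, against 20.6 ± 4.08, chromosome 19 had 35, against 14.7 ± 4.23, and chromosome 22 had 15, against 9.70 ± 3.10. The other main chromosomes were alike for close summits, with 784 candidates within 50 bases, a ratio to shifts of 3.08. On them 32.1% of candidates had summits within 100 bases, where the 3 chromosomes had 32.5%. At some wider distances the direction differed. Over 100 and up to 200 bases the other main chromosomes had 629 candidates, against 511 ± 20.5 after shifts. Beyond 500 bases they had 518, against 461 ± 19.2. With lacZ lists in the place of the odd lists, regions of lacZ and even lists without an odd peak numbered 120, against 107 ± 10.5 after the same shifts, and their summits were within 50 bases in 13, against 11 ± 3.09. With lacZ lists in the place of the even lists and shifted like them, regions of odd and lacZ lists without an even peak numbered 115, against 95.4 ± 7.58, a ratio of 1.21 that no shift reached. On chromosome 17 these numbered 58, against 42.1 ± 5.93, a ratio of 1.38, above the 1.29 of the candidates there. Their summits were within 50 bases in 9, against 8.30 ± 3.83. A higher count at the real position was thus also seen for a pair with control probes, and its summits within 50 bases lay within the range of the shifts, 3 to 22.

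**Figure D4:**
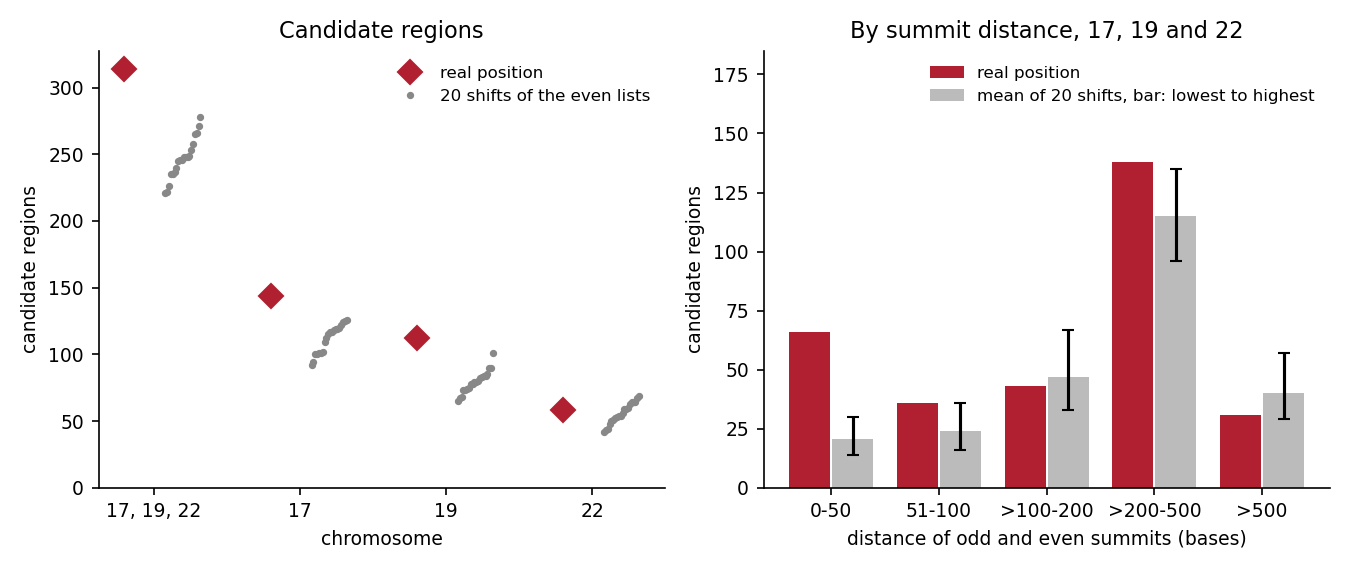
Left, candidate regions on chromosomes 17, 19 and 22 at the real position and after each of 20 rigid shifts of the even lists, 1 point per shift in order of its count. Right, candidates at the real position and the mean over shifts (lines show the lowest to the highest shift) by the distance between odd and even summits in bases. At 50 bases or less there were 66 candidates, against 20.9 after shifts.

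Bases shared by odd and even lists on the 3 chromosomes were few beside those shared within a set. The Jaccard index of a pair, its common bases as a share of all bases covered, was 1.42% ± 0.179 for the 9 odd-even pairs, 0.689% ± 0.252 for the 9 odd-lacZ pairs and 0.692% ± 0.261 for the 9 even-lacZ pairs. Within the odd lists it was 56.1%, within the even lists 61.4% and within the lacZ lists 40.5%. The odd-even overlap was 2.06 times that with lacZ lists, but lacZ lists were shorter. Divided by the overlap after shifts, which takes list length into account, it was 1.53 ± 0.0501 for odd-even, 1.24 ± 0.0734 for odd-lacZ and 1.13 ± 0.0357 for even-lacZ pairs. Pairs share lists, so no test was made.

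The 8 candidates of each chromosome that ranked highest by fold in all 6 lists are the ones named here. All 24 had a peak in each odd and even list. A list without a peak lowered a region's rank, so the choice itself favoured regions with a peak in each list. Of the 24, 15 ranked higher with odd and 9 with even probes, and 11 had summits within 100 bases of each other. The highest on chromosome 17 was the stretch of 944 bases from 43452803 to 43453746, ranked 11 among the 4042 candidates of chromosomes 1 to 22 and X. Its fold enrichment was 49.2, 190 and 79.0 in the odd lists and 114, 168 and 92.5 in the even lists, with pileups of 263, 762 and 317 and of 559, 719 and 366. Its odd and even summits lay 30 bases apart, and both sets placed it among their strongest peaks, with a mean percentile of 97.6 and 99.0. It was 1 of only 2 candidates on the 3 chromosomes in which both sets were over the 90th percentile, at a mean percentile of 98.3.

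The second of them was the highest on chromosome 22, the stretch of 1396 bases from 36080989 to 36082384. Its fold enrichment was 42.9, 88.1 and 66.2 in the odd lists and 55.1, 99.8 and 54.0 in the even lists. Here the summits lay 539 bases apart, while the 3 odd summits spanned 3 bases and the 3 even summits 42, so each set marked its own place within the region.

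On chromosome 19 the highest was the stretch of 855 bases from 30321389 to 30322243, with a fold enrichment of 62.2, 92.5 and 80.3 in the odd lists and 34.2, 40.7 and 28.6 in the even lists. Its summits lay 25 bases apart, and the odd peaks ranked higher. The region of 916 bases from 52327911 to 52328826 on the same chromosome had the opposite order, with a fold of 17.7, 53.0 and 27.6 in the odd lists and 91.6, 89.7 and 72.5 in the even lists. Its summits lay 90 bases apart.

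Several of the other named candidates had a far higher fold with a single probe set. On chromosome 17 the stretch between 74415092 and 74416446 reached a fold of 133, 166 and 105 in the odd lists and 29.3, 26.1 and 28.1 in the even lists, with summits 4 bases apart. Another region there, from 37745231 to 37746436, had a fold of 15.6, 19.8 and 19.1 in the odd lists and 106, 64.0 and 74.7 in the even lists, with summits 710 bases apart. Chromosome 22 held one from 37395797 to 37396714, with a fold of 102, 201 and 111 in the odd lists and 17.1, 20.1 and 9.82 in the even lists, with summits 30 bases apart. A region of 920 bases on the same chromosome from 18116193 to 18117112 had a fold of 15.9, 27.0 and 26.0 in the odd lists and 88.7, 57.0 and 77.2 in the even lists, with summits 83 bases apart. Among the 24, the mean fold of a region ran from 15.8 to 138 with odd and from 9.45 to 125 with even probes. Folds of different lists were not tested against each other, since the depth of each list is unknown.

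**Figure D5:**
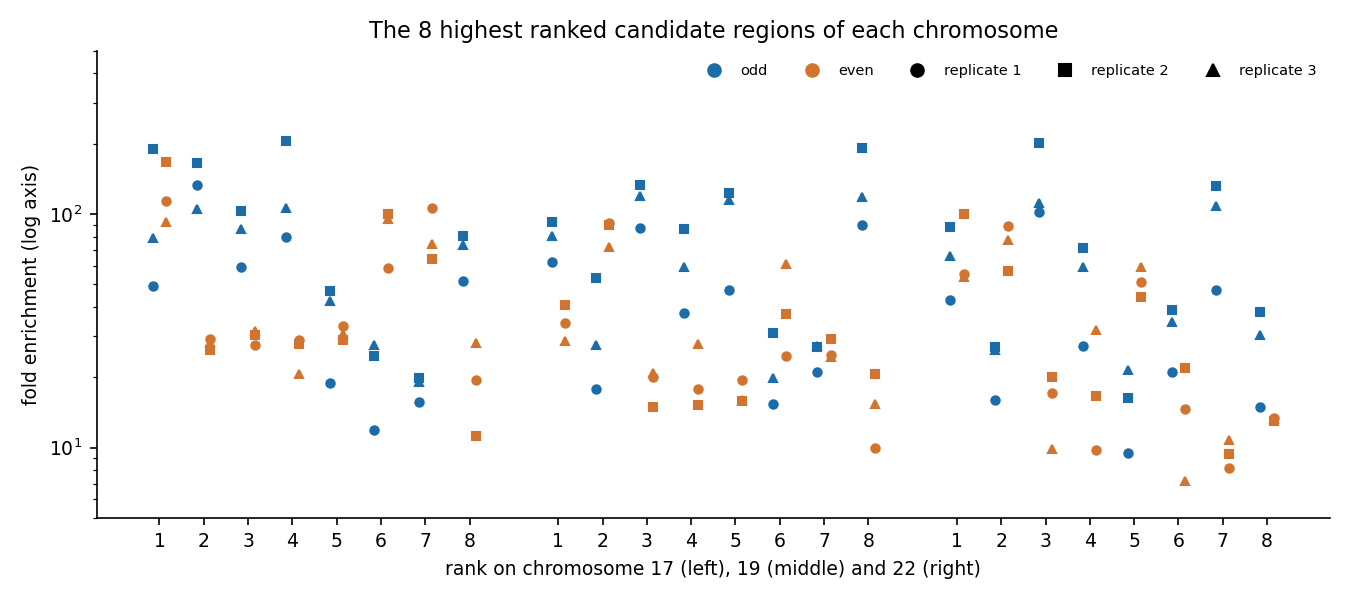
Fold enrichment of the 24 named candidate regions in each of the 6 odd and even lists, on a log scale, by chromosome and rank within it. The chromosome 17 region of rank 1 is high in both sets, from 49.2 to 190 with odd and 92.5 to 168 with even probes, while many others are high in a single set.

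A small number of regions also had a lacZ peak. Regions with 5 or 6 odd and even lists and at least 1 lacZ list numbered 16 on the 3 chromosomes, 0.0656% of their regions, where 0.0682% of all regions on chromosomes 1 to 22 and X were of this kind. Chromosome 17 had 4, chromosome 19 had 5 and chromosome 22 had 7, the last being 0.135% (Wilson 95% interval 0.0656 to 0.279). The one with the highest rank ran from 58362496 to 58363514 on chromosome 19. Its fold enrichment was 40.5, 92.2 and 67.0 in the odd lists and 61.5, 79.2 and 109 in the even lists, with odd and even summits at the same base. In lacZ replicate 2 its fold was 7.53, and the other lacZ lists had no peak there, so under the candidate rule this region was left out because of a weak peak in a single lacZ list. It was chosen for mention after its values were seen.

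Peaks that recurred within a single probe set were far more frequent than candidates. Regions with a peak in all 3 odd lists and in no other list numbered 3762 on the 3 chromosomes, 15.4% of their regions, where 14.5% of all regions were of this kind. Even-only regions numbered 4369, 17.9%, where 17.3% of all were. LacZ-only regions, found in every lacZ list and in no more than 1 of the others, numbered 1318, 5.41%, where 6.13% of all were. These shares lay near those of the whole list, slightly above for odd-only and even-only and slightly below for lacZ-only regions. Regions with a peak in all 9 lists numbered 3 (0.0123%, where 0.0137% of all were), 1 on each chromosome. They were the stretch from 19338948 to 19339691 on chromosome 22, from 55129321 to 55130325 on chromosome 19 and from 66131127 to 66132089 on chromosome 17.

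The strongest peak on the 3 chromosomes in each odd list was an odd-only region of 2550 bases from 16182799 to 16185348 on chromosome 22. Its fold was 159, 503 and 239 in the 3 odd lists, with pileups of 852, 2314 and 960, and neither an even nor a lacZ list had a peak there. The 3 odd summits lay within 2 bases of each other. The highest ranked even-only region ran from 32660479 to 32661403 on chromosome 17, with a fold of 145, 221 and 177 in the even lists. The highest ranked lacZ-only region ran from 40593807 to 40594764 on chromosome 22, with a fold of 157, 513 and 108 in the lacZ lists. Such single-set peaks were thus listed with control probes too.

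In 5 of the 9 lists the peak with the highest pileup on the 3 chromosomes had a fold under 2, while in odd replicates 2 and 3 it was also the peak with the highest fold. On chromosome 19 near 27732010, a peak of 288 bases had a pileup of 3870 but a fold of only 1.11 in odd replicate 1, and peaks at the same place had a pileup of 4880 and a fold of 1.14 in even replicate 2. In the lacZ lists the place had a pileup of 4352 with a fold of 1.42 in replicate 1 and 3816 with 1.84 in replicate 3. In even replicate 3 and lacZ replicate 2 the peak with the highest pileup had a fold of 148 and 473.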

How the data were processed

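The ChIRP-seq peak lists of 3 odd, 3 even and 3 lacZ libraries were used. FastQC, Bowtie2 and the build hg19 are named in the submitters' processing notes, without versions. For the peak caller, its parameters and its control, the sources used here give nothing. Each deposited list gives positions counted from 1. It gives the pileup as a signal of fragments at the summit, not scaled to depth. The significance was deposited by the authors as −log10 of the p-value and of the q-value, and fold enrichment, per the file headers, is a ratio of pileup over a background.

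Depth is unknown, so peak numbers were compared as shares within a list and pileup, length and density as ratios within a list. Chromosomes 1 to 22 and X were used. Lists of equal length kept the peaks of highest −log10 q-value, as many as the shortest list had. Longer lists thus kept only their most significant peaks. Length was the number of 1 Mb windows with a peak summit in any list: 174 on the 3 chromosomes and 2714 elsewhere. Exact permutation tests on the log2 scale took all 84 choices of 3 lists out of 9, whose smallest p is 0.0119. Density was tested by sign flips over the 9 lists, 512 in all, and p-values were adjusted over 11 tests. Window counts, candidate regions, shifts and overlaps are descriptions, with no test. Named regions were the 8 candidates per chromosome that ranked highest by percentile of fold, averaged over the 6 odd and even lists, the 2 highest of each single-set class and all regions found in 9 lists. In the average over lists, a list without a peak counted as the lowest percentile. Named windows were the 3 densest per chromosome and set, and of all these the text gives the leading ones. The members, lists and rules were chosen with earlier results of these data known.

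The gene table follows another build, GRCh38.p14, so it served only for the number of coding genes per chromosome. No gene is named at a region, and no sequence is given. Same-numbered libraries deviated together in 1 of 9 pairs (correlation over 0.1), so the numbers were not taken as pairs. An effect shared by the libraries of a number was not tested. Scripts were tested on simulated data and used Python 3.11.15, numpy 2.4.6, pandas 2.3.3, scipy 1.17.1 and matplotlib 3.10.9.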

Additional observations from a re-analysis of the deposited data

Results flagged for a closer look

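Sequences assigned to chromosomes 17 and 19 but not placed on them were left out of the comparisons above, and as a share of the list they held more peaks with odd and even probes than with lacZ probes. Per 10000 peaks of a list, they held 2.95 ± 0.339 with odd and 3.53 ± 0.244 with even probes (SD, n = 3 each), against at most 2.41 in a lacZ list. The sequence gl000204 of chromosome 17 held 5 ± 1 odd peaks and 6.33 ± 2.08 even peaks, against at most 2 in a lacZ list. The sequence gl000208 of chromosome 19 held 4 ± 2 odd and 4.67 ± 1.15 even peaks, and no lacZ list had a peak on it. The sequence gl000209 of chromosome 19 held 12.7 ± 2.52 odd and 10.3 ± 4.16 even peaks, against at most 4 in a lacZ list. The other 3 sequences did not follow this. On gl000205 the odd lists had 5, 6 and 6 peaks and the even lists 10, 11 and 19, against 7, 12 and 6 in the lacZ lists, and on gl000203 and gl000206 lacZ replicate 2 had the highest count, 2 on each. Odd and even lists were also longer than lacZ lists, and the part of list length in the peak numbers of the single sequences was not tested.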

How the results depend on the processing

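The higher density on chromosomes 17, 19 and 22 passed its test under all 17 alternatives, at log2 differences of 0.11 to 0.40. The higher peak share with odd and even probes kept its direction under all 19. It missed the threshold with odd lists alone (0.17) and even lists alone (0.12), both at exact permutation p = 0.1, the smallest possible. It also missed it without all libraries of a number, at 0.14 to 0.16 (exact permutation p = 0.0667 to 0.133). The smallest possible p there was 0.0667, so these settings could not pass. Without lacZ replicate 3 it missed the threshold too (0.11). Leaving out single lists or numbers gave 0.11 to 0.17 in all. The numbers were not taken as pairs, but replicate 3 had the lowest share in each set. With a replicate block the share difference of 0.15 had an exact permutation p of 0.037, the smallest of its kind. With the block the pileup had 0.0741 and the length 0.259. The pileup difference ran from 0.062 to 0.114 without single lists or numbers. The length difference was -0.0039 with peaks at or above the median fold, and the cause was not tested.

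Hot windows with odd, even and lacZ probes numbered 9, 6 and 1 at 1.5 times the median. At 1.25 times, a level chosen after seeing the data, they numbered 39, 39 and 22. That is 22.41%, 22.41% and 12.64% of the 174 windows, where 13.37%, 13.02% and 10.11% of all 2888 windows qualified. Windows of 500 kb gave 3 with odd and 1 with even probes, stronger peaks gave 1 with odd probes, and lists of equal length gave 5, 4 and 1. Leaving out replicates gave 0 to 1 with lacZ probes. For these changes of windows, peaks, lists or replicates the share of all windows was not counted.

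The 314 candidates became 82 with stronger peaks (0.709% of regions, against 0.739% on the other chromosomes) and 22 with equal lists (0.320% against 0.485%). They became 527 with peaks merged over 500 bases (2.32% against 1.92%) and 86 with 50% of the region covered (0.353% against 0.309%). There were 171 for 6 lists, 530 for 4 and 102 for close summits (0.701%, 2.17% and 0.418%, against 0.649%, 1.89% and 0.359%). Leaving out a lacZ list gave 314 to 323. Leaving out an odd or even list or a replicate number gave 338 to 518, but fewer lists were then required. The share without replicates was 1.10 to 1.20 times that elsewhere. The ratio to shifts was 1.12, 0.727, 1.20, 1.36, 1.20 and 2.27 for stronger peaks, equal lists, merging, cover, 6 lists and close summits. It was 1.37 for shifts of 1 to 10 Mb, 1.12 and 1.21 with lacZ in place of odd or even lists, and, added after seeing the data, 1.35 on other chromosomes and 1.36 on chromosomes 4, 13 and 18. With equal lists it thus reversed, with 22 candidates against 30.3 ± 6.56 after shifts, where the other chromosomes had 1.35. The candidate share, 1.15 times that of other chromosomes, reversed to 0.958 with stronger peaks and 0.660 with equal lists. The causes were not tested. The overlap ratio of 2.06 was 1.29 over shifts, 1.41 with equal lists and 1.68 to 2.49 without replicates.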
